A study of Mus musculus with 6 samples.

Results

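The collagen hydroxylases studied here are the 10 genes P4ha1, P4ha2, P4ha3, Plod1, Plod2, Plod3, P3h1, P3h2, P3h3 and P3h4, taken by gene symbol from the 16964 genes that the count tables of all 3 tissues list. All 10 were found, and 10 of 10 passed the filter on low counts. RNA was sequenced in 6 bulk libraries of female mice, 2 each from the infrapatellar fat pad, the Achilles tendon and the rectus femoris, a thigh muscle. Titles of both fat pad libraries carry the name of letrozole, an aromatase inhibitor, and the tendon and muscle titles name no drug. No label sets a treated library against a control, so wherever the fat pad is compared, tissue and drug cannot be told apart. The sources used here give no age, strain or dose, nor the number of animals behind a library, and the p-values therefore reflect the spread between the sequenced libraries alone, which may be technical.

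Collagen chains are modified in the endoplasmic reticulum before they fold into a triple helix. Prolyl 4-hydroxylases (catalytic subunits P4ha1 to P4ha3, each working with the P4hb subunit) make the 4-hydroxyproline that keeps the helix stable at body temperature. Lysyl hydroxylases (Plod1 to Plod3) make the hydroxylysine that carries sugars and sets the kind of collagen cross-link. Prolyl 3-hydroxylases (P3h1 to P3h3, with the related protein P3h4) modify few, specific prolines. These enzymes use oxygen, iron, 2-oxoglutarate and ascorbate, and several of their genes are known targets of the hypoxia-inducible factors.

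Library depth was 83132413 and 106319037 counts in fat pad, 59042675 and 62063826 in tendon, and 56216295 and 58544836 in muscle. In 2 label fields all libraries are named as fat pad, and a separate label names the 3 tissues. Adipocyte, tenocyte and fast muscle markers, summed as CPM (counts scaled to library size), were each highest in the matching tissue of that separate label. Slow muscle markers were highest in tendon and not in muscle. No marker of the 4 next lists was at 0 in any library. The 8 adipocyte markers summed to 79805 and 84999 CPM in fat pad, 4758 and 916 in tendon, and 351 and 858 in muscle. The 7 tenocyte markers summed to 111 and 93.3 CPM in fat pad, 12587 and 15953 in tendon, and 867 and 588 in muscle. The 10 fast muscle markers summed to 248 and 218 CPM in fat pad, 43877 and 96260.0 in tendon, and 256758 and 241754 in muscle, so both tendon libraries carried muscle transcripts. The 6 slow muscle markers reached 3.22 and 3.56 CPM in fat pad and 12687 and 5721 in tendon, against 12.9 and 41.8 in muscle. Neutrophil and marrow markers summed to 1961 and 261 CPM in the fat pad libraries. Synovial lining markers reached 17743 and 20007 CPM in fat pad, 1780.3 and 923 in tendon, and 299 and 327 in muscle. Macrophage markers had 5643 and 8362 CPM in fat pad, 506 and 416 in tendon, and 286 and 267 in muscle. Fibroblast markers had 6785 and 7651 CPM in fat pad, 6531 and 4897 in tendon, and 1019.8 and 1016 in muscle. Single synovial and fibroblast markers went both ways between fat pad and muscle. The 6 libraries share a batch label, but each tissue has its own code in the titles, whose meaning is not stated and which cannot be told apart from tissue. Fat pad and tendon titles add that a library was combined, without saying of what.

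Promoters of 7 of the 10 genes were in the RefSeq promoter table (GRCm38.p6), and P3h2, P3h4 and Plod2 had no entry. The 4 shown are those of all P4ha genes, whose tissue patterns differed from each other, and of P3h3, which was high in tendon. Each runs over the 250 bases before the gene's start, 5′ to 3′ on the gene's strand. Capitals mark the core of the hypoxia response element, searched as ACGTG or GCGTG on both strands. The first of these can also be part of an E-box (CACGTG). P4ha1 lies at chr10:59323046-59323295 on the plus strand, P4ha2 at chr11:54100674-54100923 on the plus strand, P4ha3 at chr7:100285270-100285519 on the plus strand, and P3h3 at chr6:124857718-124857967 on the minus strand.
P4ha1: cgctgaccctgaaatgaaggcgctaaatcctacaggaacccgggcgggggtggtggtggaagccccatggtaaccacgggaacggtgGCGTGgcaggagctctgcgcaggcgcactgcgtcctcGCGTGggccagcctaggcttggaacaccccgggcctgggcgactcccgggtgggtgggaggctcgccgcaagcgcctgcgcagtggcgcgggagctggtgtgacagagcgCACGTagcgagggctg
P4ha2: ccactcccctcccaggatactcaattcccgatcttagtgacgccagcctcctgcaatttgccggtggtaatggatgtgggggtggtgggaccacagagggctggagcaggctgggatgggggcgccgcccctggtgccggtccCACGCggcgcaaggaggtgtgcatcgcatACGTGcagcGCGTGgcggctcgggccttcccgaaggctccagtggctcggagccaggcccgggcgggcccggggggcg
P4ha3: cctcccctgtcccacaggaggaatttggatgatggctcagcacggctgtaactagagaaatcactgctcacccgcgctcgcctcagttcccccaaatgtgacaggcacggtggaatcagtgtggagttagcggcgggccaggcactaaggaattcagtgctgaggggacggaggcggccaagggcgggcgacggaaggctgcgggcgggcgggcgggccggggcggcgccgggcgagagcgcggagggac
P3h3: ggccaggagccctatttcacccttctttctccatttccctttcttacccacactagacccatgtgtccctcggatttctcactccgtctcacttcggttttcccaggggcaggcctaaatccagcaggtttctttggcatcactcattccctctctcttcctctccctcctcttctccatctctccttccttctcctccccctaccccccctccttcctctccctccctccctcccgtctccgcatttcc
P4ha1 and P4ha2 had 3 matches each, and P4ha3 and P3h3 had 0. Of 8 member promoters, counting both starts of P3h1, 6 held at least 1 match, against 38.6% of 32851 promoters of that length. A match describes letters in this window only.

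Levels are given as CPM after trimmed mean of M-values (TMM) scaling, and in bulk tissue fewer cells of a type and less RNA per cell cannot be told apart. P4ha1, the main catalytic subunit in most tissues, was lower in fat pad than in tendon and in muscle. It had 58.4 and 47.7 CPM in the fat pad libraries, 129 and 192 in tendon, and 120.0 and 122 in muscle. Both fat pad libraries lay below the other 4, and both tendon libraries lay above both muscle libraries. The log2 fold change (± SE) was -1.60 ± 0.25 for fat pad over tendon (edgeR quasi-likelihood test, Benjamini-Hochberg adjusted p = 0.0015) and -1.19 ± 0.25 for fat pad over muscle (edgeR, adjusted p = 0.00532). Tendon over muscle was 0.41 ± 0.24 (edgeR, adjusted p = 0.249), which did not pass the threshold of 0.05. It was 1.12 with scaling by total counts (edgeR, adjusted p = 0.00979) and -0.25 with the authors' TPM.

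P4ha2, the second catalytic subunit, showed no call in any comparison. Its levels were 42 and 48.6 CPM in fat pad, 31.0 and 40.4 in tendon, and 62.6 and 49.6 in muscle. The 3 tissues did not overlap, but tendon over muscle, at -0.65 ± 0.21 on the log2 scale, missed the threshold (edgeR, adjusted p = 0.0625) and turned to 0.07 when libraries were scaled by total counts. It passed with DESeq2 (-0.72, adjusted p = 0.031) and without tendon library 2 (-0.85, edgeR, adjusted p = 0.0465). P4ha3, the third and least abundant subunit, had 7.09 and 5.54 CPM in fat pad, 3.25 and 2.71 in tendon, and 0.637 and 0.264 in muscle. The muscle levels rest on 26 and 12 counts, against 641 and 623 in fat pad and 252 and 197 in tendon. P4ha3 was higher in fat pad than in muscle by 3.81 ± 0.55 (edgeR, adjusted p = 0.00104) and higher in tendon than in muscle by 2.73 ± 0.53 (edgeR, adjusted p = 0.0158), both on the log2 scale. The tendon call was lost without muscle library 1 (3.49, edgeR, adjusted p = 0.0697) or muscle library 2 (2.23, adjusted p = 0.0839). Fat pad over tendon, at 1.08 ± 0.48, did not pass (edgeR, adjusted p = 0.0911), although the groups did not overlap. It passed with DESeq2 (1.19, adjusted p = 0.0281) and turned to -0.24 with the authors' TPM.

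**Figure D1:**
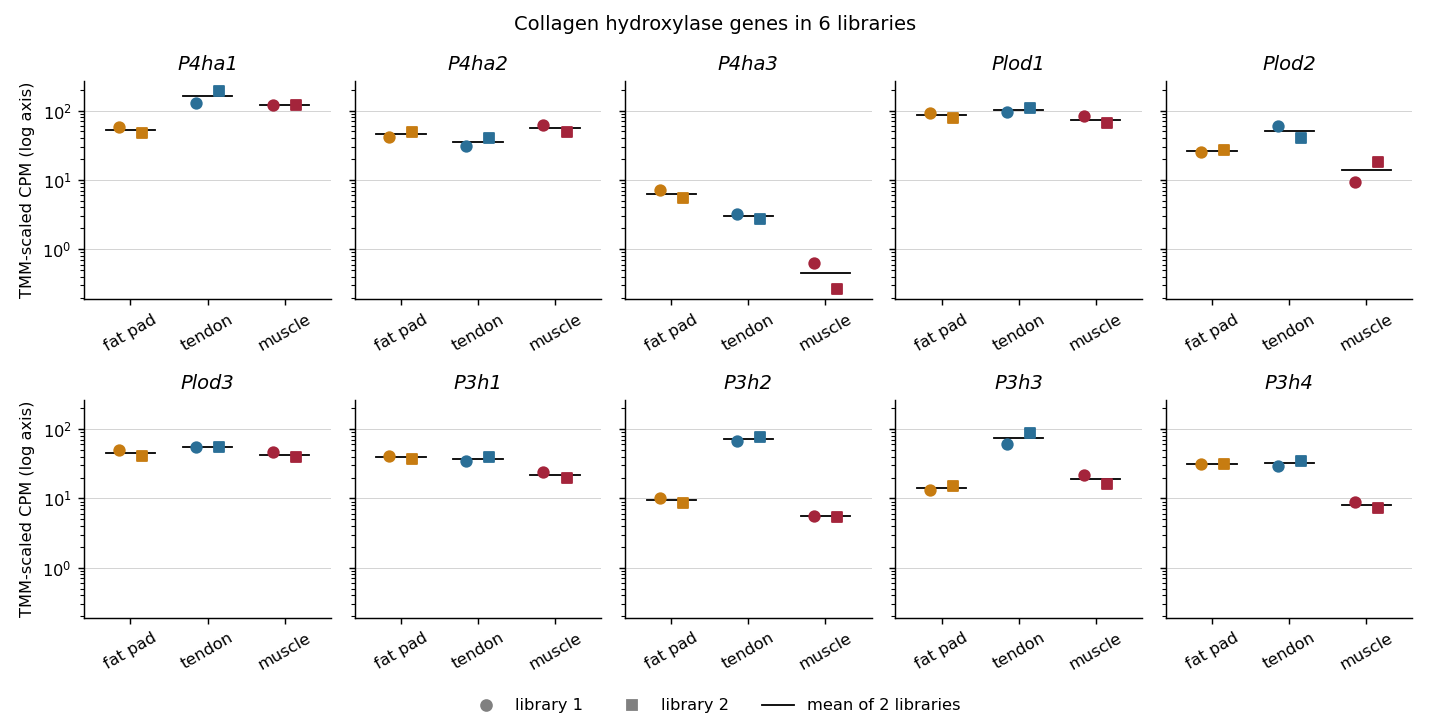
TMM-scaled CPM (log axis) of the 10 genes in the 2 libraries of each tissue, with the mean of each pair as a line. P3h2 and P3h3 stand high in both tendon libraries, P4ha1 stands low in both fat pad libraries, and P4ha3 and P3h4 stand low in both muscle libraries.

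Among the lysyl hydroxylases, Plod2 differed between tissues, and Plod1 and Plod3 were not called in any comparison. Plod2 hydroxylates lysines in the collagen telopeptides, the step that leads to stable cross-links. It had 25.2 and 26.8 CPM in fat pad, 60.5 and 40.5 in tendon, and 9.31 and 18.1 in muscle. No library of 1 tissue overlapped another tissue. Tendon exceeded muscle by 1.88 ± 0.35 on the log2 scale (edgeR, adjusted p = 0.0144), and fat pad was lower than tendon by a log2 fold change of -0.96 ± 0.34 (edgeR, adjusted p = 0.0469). The first of these calls was lost without muscle library 1 (1.49, edgeR, adjusted p = 0.0886) or muscle library 2 (2.45, adjusted p = 0.0578). The second was lost without fat pad library 1 (edgeR, adjusted p = 0.18), fat pad library 2 (0.134) or tendon library 1 (0.228), and with DESeq2's size factors in place of TMM (-0.84, edgeR, adjusted p = 0.0627). Fat pad over muscle was 0.92 ± 0.34 and did not pass (edgeR, adjusted p = 0.0526), though it did in 7 of 15 alternatives, such as without muscle library 2 (edgeR, 1.48, adjusted p = 0.0162).

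Plod1, which acts on lysines of the helix, had 93.0 and 77.4 CPM in fat pad, 95.3 and 108 in tendon, and 82.6 and 65.5 in muscle. Fat pad and muscle overlapped, and the largest of its 3 fold changes, tendon over muscle, was 0.46 on the log2 scale (edgeR, adjusted p = 0.141). Plod3, a lysyl hydroxylase that also adds sugars to hydroxylysine, had 50.4 and 41.0 CPM in fat pad, 55.8 and 55.7 in tendon, and 46.6 and 39.2 in muscle. Its log2 fold changes were 0.09 for fat pad over muscle (edgeR, adjusted p = 0.686), -0.29 against tendon (0.216) and, between tendon and muscle, 0.38 (0.166). Both genes passed for tendon over muscle when libraries were scaled by total counts, at 1.18 and 1.11 (edgeR, adjusted p = 0.00513 and 0.00566), a scaling that moved the median of all genes by 0.73. With the authors' TPM both were called lower in fat pad than in tendon, at -0.69 to -0.71 for Plod1 (limma, adjusted p = 0.0231 to 0.0263) and -1.03 to -1.06 for Plod3 (0.0035 to 0.00475), where the median of all genes moved by -0.81 with a pseudocount of 1. Of the exonic bases of Plod3, 11.7% are also covered on the opposite strand by Znhit1 or Mir702, and the sources used here do not give the strand setting of the counting. Plod2 shares 6.4% with Gm38391 in the same way.

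Among the prolyl 3-hydroxylases, P3h2 and P3h3 stood high in tendon, and P3h1 and P3h4 stood low in muscle. P3h2, known for modifying basement membrane collagen, had 10.1 and 8.57 CPM in fat pad, 67.2 and 78.1 in tendon, and 5.54 and 5.46 in muscle. Both tendon libraries stood far above the other 4. Fat pad over tendon was -2.96 ± 0.20 on the log2 scale (edgeR, adjusted p = 7.73e-05), and tendon over muscle was 3.72 ± 0.21 (edgeR, adjusted p = 0.00282). Fat pad exceeded muscle by 0.76 ± 0.19 (edgeR, adjusted p = 0.0115), a call that was lost without muscle library 1 (0.0692) or muscle library 2 (0.0767) and that turned to -0.24 with the authors' TPM. Opposite-strand exons of Gm4524 cover 28.4% of the exonic bases of P3h2, and without a stated strand setting its reads and those of Gm4524 cannot be told apart there. The share of counts concerned was not tested.

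P3h3, which works in a complex with lysyl hydroxylase 1, showed the same order of tendon against the rest. It had 13.2 and 15.0 CPM in fat pad, 60.8 and 88.3 in tendon, and 21.5 and 16.3 in muscle. Fat pad over tendon was -2.40 ± 0.25 (edgeR, adjusted p = 0.000298) and tendon over muscle 1.98 ± 0.25 (edgeR, adjusted p = 0.00655), both log2 values. Without muscle library 1 or 2 the tendon over muscle call was lost (edgeR, adjusted p = 0.0606 and 0.0611). Fat pad over muscle, at -0.43, did not pass (edgeR, adjusted p = 0.171) and was 0.09 with scaling by total counts. With the authors' TPM it was called, at -1.13 to -1.24 (limma, adjusted p = 0.00438 to 0.00694).

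P3h1, the catalytic member of the complex that modifies type I collagen, had 41.3 and 37.5 CPM in fat pad, 34.4 and 39.6 in tendon, and 24.4 and 19.5 in muscle. Muscle lay below both other tissues, which overlapped. The gene was higher in fat pad than in muscle by 0.84 ± 0.19 (edgeR, adjusted p = 0.00831) and higher in tendon than in muscle by 0.75 ± 0.19 (edgeR, adjusted p = 0.0325), as log2 values. The call for fat pad over muscle was lost without muscle library 2 (0.081), and with the authors' TPM, where the log2 value was 0.41 (limma, adjusted p = 0.245). The call for tendon over muscle was lost when any 1 of the tendon or muscle libraries was left out, with adjusted p-values of 0.0713 to 0.187.

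P3h4, which lacks the catalytic residues and partners with P3h3, had 31.3 and 30.9 CPM in fat pad, 29.1 and 34.8 in tendon, and 8.97 and 7.31 in muscle. Fat pad and tendon overlapped, and both muscle libraries lay below them. Fat pad over muscle was 1.93 ± 0.21 (edgeR, adjusted p = 0.00028) and tendon over muscle 1.97 ± 0.21 (edgeR, adjusted p = 0.00485) on the log2 scale, the call for tendon being lost without muscle library 1 or 2 (edgeR, adjusted p = 0.0606 and 0.0578). Fat pad over tendon was -0.04 (edgeR, adjusted p = 0.882) and turned to 0.07 with DESeq2's size factors.

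**Figure D2:**
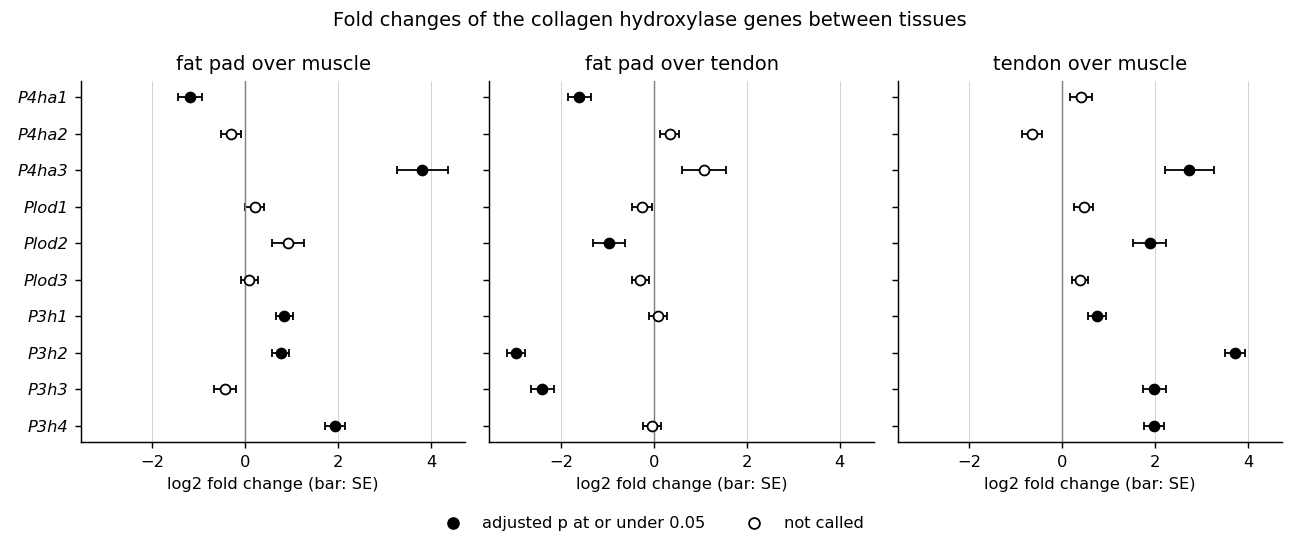
Log2 fold changes of the 10 genes in the 3 tissue comparisons of the edgeR fit, with bars of 1 SE and filled points where the adjusted p is at or under 0.05. All 6 filled points for tendon over muscle lie to the right of 0, and all 4 for fat pad over tendon lie to the left.

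For tendon over muscle, 6 of the 10 genes were called, all higher in tendon (P4ha3, Plod2, P3h1, P3h2, P3h3 and P3h4), while 26.0% of all 15856 genes tested were called (13.3% higher and 12.7% lower). The genes' median log2 fold change was 1.32, against 0.10 over all genes. For fat pad over muscle 5 of 10 were called, with P4ha3, P3h1, P3h2 and P3h4 higher and P4ha1 lower, and 59.4% of all genes were called (29.8% higher and 29.6% lower). For fat pad over tendon 4 of 10 were called, all lower (P4ha1, Plod2, P3h2 and P3h3), with 58.5% of all genes called (27.2% higher and 31.4% lower). Both fat pad counts lie below the share of all genes called, and the median size of the log2 change was 0.80 against 1.37 over all genes for fat pad over muscle and 0.65 against 1.30 for fat pad over tendon. The 3 comparisons share libraries, so they are not independent of each other. Without muscle library 1 or without muscle library 2, 1 gene, P3h2, stayed called for tendon over muscle, and the calls among all genes dropped to 43 and 19. Muscle transcripts moved with tissue, as the marker sums show, and their part in these differences was not tested.

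By length-scaled counts, the order of the enzymes within the P4ha and P3h families differed between tissues. On that scale the Plod family kept the order Plod1, Plod3, Plod2 in all 6 libraries. By counts alone, Plod2 exceeded Plod3 in tendon library 1 (28.6% against 26.4% of the family). In the authors' TPM it did so in tendon library 2 (32.3% against 28.1%). Levels divided by the length of each gene's longest coding transcript allow genes to be compared. Among P4ha genes, P4ha1 made up 40.1% and 33.1% of the length-scaled family counts in fat pad, 68.0% and 71.5% in tendon, and 51.5% and 57.9% in muscle. P4ha2 made up 51.5% and 60.3% in fat pad, 29.1% and 26.8% in tendon, and 48.0% and 41.9% in muscle, so it led the family in fat pad and P4ha1 led it in tendon. The lead of P4ha2 in fat pad depends on the length used, since without length scaling P4ha1 averaged 50.6% there. By counts alone P4ha1 led in fat pad library 1 (54.3% against 39.1%) and P4ha2 in library 2 (47.7% against 46.8%). In the authors' TPM P4ha1 led in both fat pad libraries, with 66.4% and 60.2%. P4ha1 had its lowest share in fat pad under each of these scales and in the authors' TPM.

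Plod2 held 13.5% and 16.8% of the Plod family in fat pad, 26.3% and 18.1% in tendon, and 6.02% and 13.3% in muscle. The 3 tissues did not overlap, though fat pad library 1 stood close to muscle library 2 and fat pad library 2 to tendon library 2. P3h2 held 8.77% and 7.72% of the P3h family in fat pad, 31.0% and 28.6% in tendon, and 8.03% and 9.86% in muscle. P3h3 held 13.2% and 15.6% in fat pad, 32.3% and 37.3% in tendon, and 35.9% and 34% in muscle. The lead of P3h3 over P3h2 in tendon depends on the length used. By counts alone P3h2 led in tendon library 1 (35.1% against 31.7%) and P3h3 in library 2 (36.7% against 32.4%). In the authors' TPM P3h2 led in both, with 47.3% and 42.8% against 15.8% and 17.5% for P3h3. P3h4 led in fat pad, with 41.0% and 41.9%, against 20.2% and 19.2% in tendon and 19.6% and 19.9% in muscle. This lead depends on the length used, since by counts alone P3h1 held 43.1% and 40.8% in fat pad and P3h4 32.7% and 33.6%. In the authors' TPM P3h4 held 69.4% and 70.3% in fat pad. By length-scaled counts P3h1 stood at 37.0% and 34.8% in fat pad, 16.4% and 14.9% in tendon, and 36.4% and 36.3% in muscle, but at 11% and 10.3% in fat pad in the authors' TPM. Exact (Clopper-Pearson) 95% intervals of the count shares were at most 4.10 percentage points wide and cover counting error only. No test was made of these shares, since a two-sided exact permutation test of 2 libraries against 2 gives no p below 0.333.

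**Figure D3:**
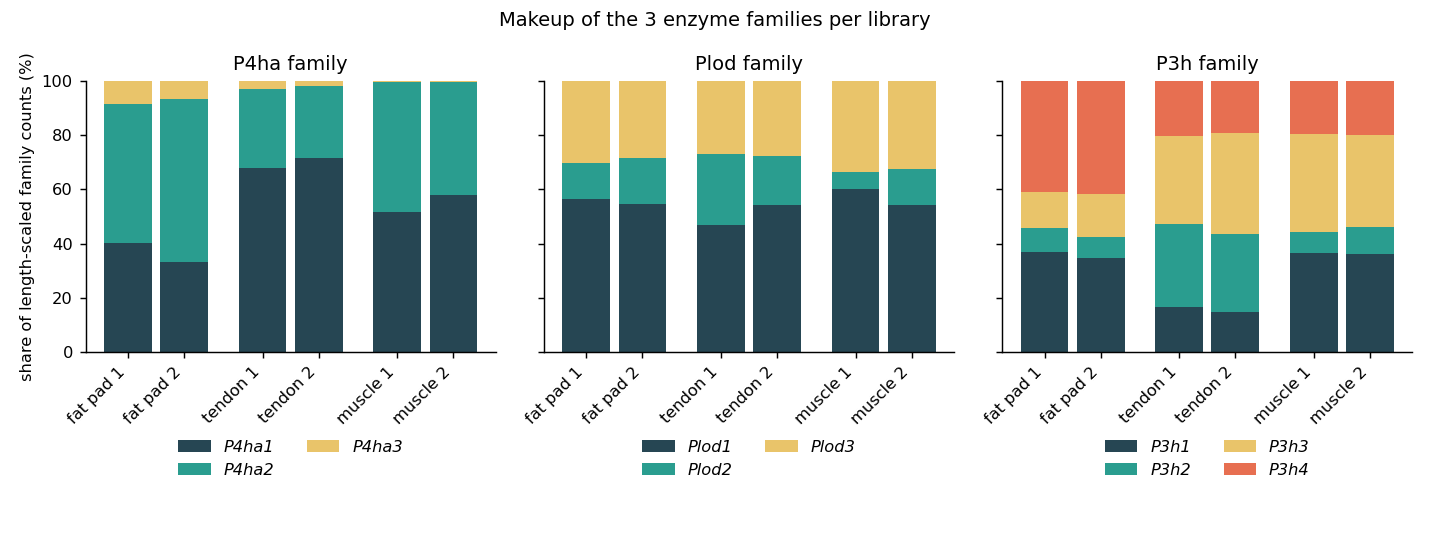
Share of each gene in the length-scaled counts of its family (%) in the 6 libraries, with 1 stacked bar per library. In the P3h family P3h4 has its widest share in fat pad and P3h2 its widest in tendon, where P3h3 leads, and P4ha2 exceeds P4ha1 in both fat pad libraries.

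Per kilobase, the order of mean levels in fat pad ran from Plod1 at 26.3 ± 3.41 CPM per kb (SD, n = 2) and P4ha2 at 20 ± 2.06 down to P3h2 at 2.84 ± 0.327 and P4ha3 at 2.67 ± 0.464. In tendon it ran from P4ha1 at 39.8 ± 11 and Plod1 at 31.3 ± 2.74, then P3h3 at 26.2 ± 6.82 and P3h2 at 22.1 ± 2.35, down to P4ha3 at 1.26 ± 0.161. In muscle P4ha1 stood at 30.0 ± 0.438, P4ha2 at 24.8 ± 4.06 and Plod1 at 22.8 ± 3.73, with P3h2 at 1.68 ± 0.0165 and P4ha3 at 0.191 ± 0.112 at the low end. P4ha3 was last in each tissue. Many neighbours differed by less than the sum of their SDs. In tendon these were P4ha1 and Plod1, Plod1 and P3h3, P3h3 and P3h2, and every pair of neighbours between Plod3 and P3h1. In fat pad they were P3h4 and Plod3, Plod3 and P4ha1, P4ha1 and P3h1, and P3h2 and P4ha3, and in muscle P4ha2 and Plod1, P3h1 and P3h3, and P3h4 and Plod2.

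Hydroxylase and collagen levels were not in proportion across the tissues. Summed over the 10 genes, the level per library total was 405 and 359 CPM in fat pad, 745 and 797 in tendon, and 277 and 267 in muscle. Collagen genes Col1a1, Col1a2 and Col3a1, the chains of fibrillar collagens I and III, summed to 2007 and 1218 CPM in fat pad, 34261 and 18782 in tendon, and 2824 and 2205 in muscle. Per 1000 counts of those 3 collagen genes there were therefore 202 and 294 hydroxylase counts in fat pad, 21.7 and 42.4 in tendon, and 98.2 and 121 in muscle. Tendon had the highest hydroxylase level and the lowest level per collagen, and no 2 tissues overlapped on either scale. The level per library total depends on how libraries are scaled. With TMM scaling the summed levels of fat pad and muscle overlapped, while tendon stayed highest.

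All 3 families were lowest in tendon per 1000 collagen counts. P4ha genes had 58.2 and 88.4 in fat pad, 6.28 and 14.7 in tendon, and 47.1 and 60.6 in muscle, where fat pad and muscle overlapped. Plod genes had 91.4 and 126 in fat pad, 8.12 and 12.7 in tendon, and 35.6 and 43.2 in muscle. P3h genes had 52.0 and 79.9 in fat pad, 7.35 and 15.0 in tendon, and 15.5 and 17.1 in muscle, so tendon library 2 came close to muscle. Of the 10 genes, only P3h2 had both tendon libraries above both muscle libraries on this scale, with 5.47 and 7.44 in fat pad, 2.58 and 4.87 in tendon, and 1.42 and 1.92 in muscle.

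**Figure D4:**
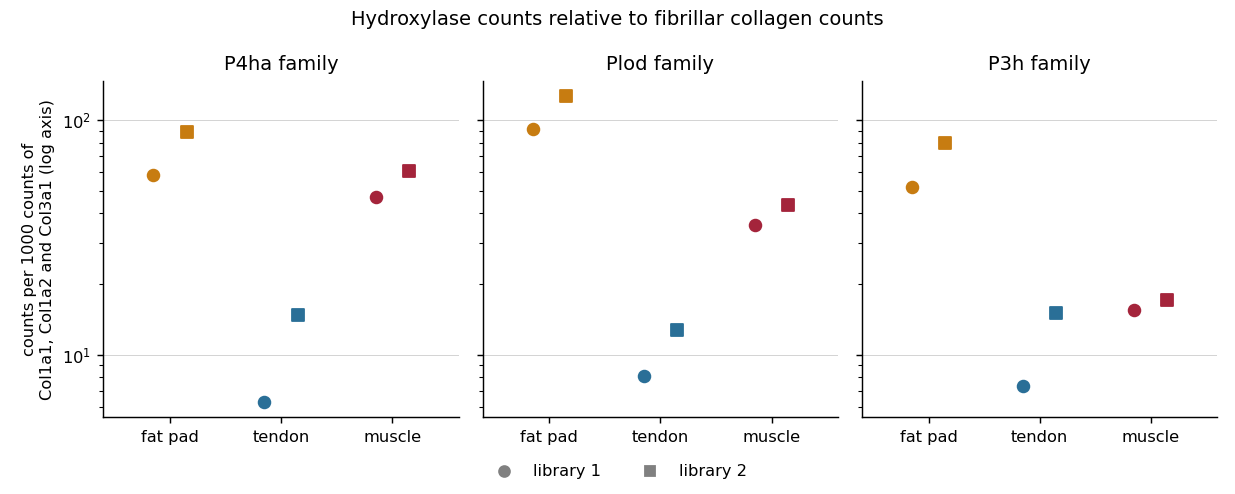
Counts of each hydroxylase family per 1000 counts of Col1a1, Col1a2 and Col3a1 (log axis), 1 point per library. Both tendon libraries lie lowest in each family, and fat pad and muscle overlap in the P4ha family only.

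Genes of partner proteins did not move as 1 group. P4hb, the shared subunit of prolyl 4-hydroxylase and a disulfide isomerase, was not called in any comparison, with 356 and 313 CPM in fat pad, 360.1 and 406 in tendon, and 286 and 283 in muscle. Crtap, the scaffold of the P3h1 complex, had 86.0 and 117 CPM in fat pad, 71.7 and 89.5 in tendon, and 21.2 and 18.3 in muscle. Ppib, the prolyl isomerase of that complex, had 122 and 134 in fat pad, 101 and 114 in tendon, and 52.4 and 49.4 in muscle. Like P3h1, both were lower in muscle than in either other tissue. Crtap was higher in fat pad than in muscle by 2.36 ± 0.23 and in tendon than in muscle by 2.03 ± 0.23 on the log2 scale (edgeR, adjusted p = 0.000198 and 0.00543). Ppib gave 1.33 ± 0.18 and 1.08 ± 0.18 (edgeR, adjusted p = 0.000808 and 0.0116).

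Fkbp10, an isomerase that works with lysyl hydroxylase 2, had 76.1 and 71.4 CPM in fat pad, 70.9 and 78.7 in tendon, and 15.1 and 13.9 in muscle. Fat pad and tendon overlapped (log2 fold change -0.02, edgeR, adjusted p = 0.917), where Plod2 was lower in fat pad. Serpinh1, the collagen chaperone HSP47, followed another course, with 52.7 and 74.9 CPM in fat pad, 315 and 491 in tendon, and 279 and 200.4 in muscle. It fell by 2.66 ± 0.34 in fat pad against tendon and fell by 1.91 ± 0.33 against muscle on the log2 scale (edgeR, adjusted p = 0.00063 and 0.00237). Tmem38b, an ion channel of the endoplasmic reticulum, also fell in fat pad, with log2 fold changes of -3.09 ± 0.20 against tendon and -3.47 ± 0.20 against muscle (edgeR, adjusted p = 7.34e-05 and 4.8e-05).

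Of the 12 partner genes, 6 rose and 2 fell for fat pad over muscle, 3 rose and 4 fell for fat pad over tendon, and 5 rose and 0 fell for tendon over muscle, with median log2 fold changes of 0.72, -0.04 and 0.66 against 0.14, -0.01 and 0.10 over all genes. Of all genes tested, 59.4%, 58.5% and 26.0% were called in these comparisons, so the share of partner genes called for fat pad over tendon, 7 of 12, was near that of all genes. These counts were not repeated without single libraries. The 5 higher in tendon than in muscle were Crtap, Ppib, Fkbp10, Fkbp7 (1.57) and Fkbp9 (1.32). Fkbp7 was also higher in fat pad, by 3.71 over muscle and 2.14 over tendon. Colgalt2, a collagen galactosyltransferase, was higher in fat pad by 1.47 over muscle and 1.82 over tendon, and its paralogue Colgalt1 was not called. Fkbp14 was higher in fat pad by 1.07 over muscle and 0.50 over tendon. Fkbp9, at -0.95, and the zinc transporter Slc39a13, at -0.49, were lower in fat pad than in tendon.

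**Figure D5:**
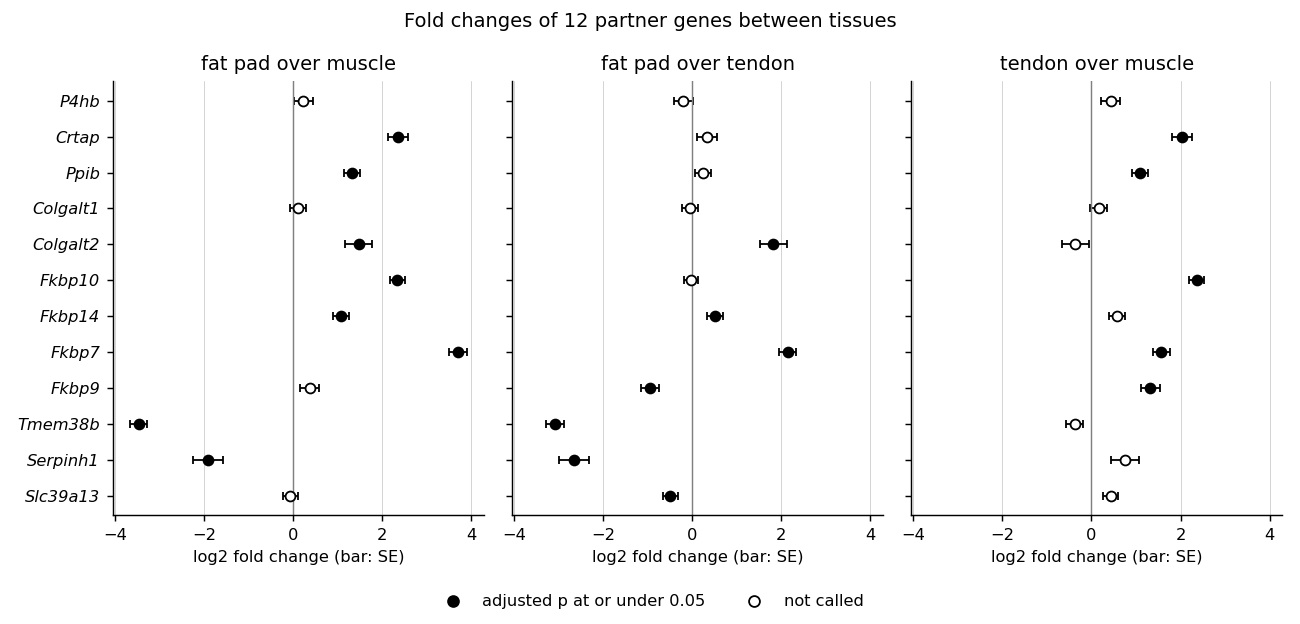
Log2 fold changes of 12 genes whose products act with the hydroxylases, in the 3 tissue comparisons, with bars of 1 SE and filled points where the adjusted p is at or under 0.05. Crtap, Ppib and Fkbp10 are higher in fat pad and in tendon than in muscle, while Serpinh1 and Tmem38b are lower in fat pad than in both other tissues.

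Libraries of 1 tissue differed by less than 1.5-fold for most of the 10 genes. Ratios were taken as library 1 over library 2, the direction of the authors' own comparisons. They reached that size in 0 of 10 genes in fat pad, 0 in tendon and 2 in muscle. Among genes with about 20 or more counts in the higher library, 29.1% of 15427, 27.9% of 14802 and 14.1% of 13805 did. The 2 genes in muscle were Plod2 and P4ha3. Plod2 had 380 and 822 counts in the muscle libraries, a ratio of 0.514 (95% exact conditional interval 0.454 to 0.582), and P4ha3 had 26 and 12, a ratio of 2.41 (1.17 to 5.25). In tendon Plod2 ran the other way, at 1.49 (1.43 to 1.56), while P4ha1 had 0.673 (0.656 to 0.691) and P3h3 0.688 (0.663 to 0.715). Tendon library 2 thus had more P4ha1 and P3h3 and less Plod2 than tendon library 1 by counts. Fast muscle markers summed to 43877 CPM in library 1 and 96260.0 in library 2, and slow muscle markers ran the other way, at 12687 in library 1 and 5721 in library 2. In the authors' TPM, which did not follow the counts in tendon, the ratio was 0.999 for P4ha1 and 0.572 for Plod2. The part of those muscle transcripts in these ratios was not tested. In fat pad the ratios ran between 0.865 for P4ha2 and 1.28 for P4ha3. Intervals cover counting error only, and no label gives the libraries of a tissue different treatments.

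Genes with the most similar profile were sought among 9543 genes, by the root mean square difference of centred log2 CPM over the 6 libraries. For P3h2 they were Cercam (0.23), Pdgfrl (0.26) and Prelp (0.35), a matrix proteoglycan. For P3h3 they were Gpsm1 (0.12), Creb3l1 (0.17), a transcription factor of the secretory pathway, and Mrc2 (0.18), a collagen uptake receptor. P3h4 came nearest to Timp2 (0.11), an inhibitor of matrix metalloproteinases, and P4ha3 to Ctsk (0.27), the collagen-degrading protease cathepsin K. Plod2 was nearest to Npy1r (0.16), P4ha1 to Uggt1 (0.10), a folding sensor of the endoplasmic reticulum, and P3h1 to Fes (0.11). P4ha2 (Ufc1, 0.06), Plod1 (Sppl3, 0.06) and Plod3 (Map1s, 0.07) had flat profiles, for which many genes lie close. These values describe 6 libraries of 3 tissues.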

How the data were processed

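RNA was sequenced in 6 libraries, grouped by the label that names 3 tissues. Per the file headers, the authors deposited per tissue 1 file of read counts (whole numbers, not normalized, by Ensembl gene) and 1 of TPM for protein-coding genes, with their log2 fold change of library 1 over library 2, a p-value and its −log10. Build GRCm39 and the tools Bowtie2, RSEM 1.3.1 and DESeq2 1.4.5 are named, with no role, in the submitters' processing notes. How reads were counted, with what strand setting and annotation, is not given in the sources used here. The authors' log2 fold change correlated with the count ratio at r = 0.976 in fat pad, -0.09 in tendon and -0.016 in muscle. Genes, over which this was taken, are not independent replicates. The check cannot show whether counts or TPM are at fault in tendon and muscle. Counts were taken as the main values and TPM as an alternative. Of per-sample columns, 0 were left unused.

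Counts of the 16964 genes in all 3 tables entered edgeR 4.0.16 under R 4.3.3 (TMM scaling, filterByExpr, 6 libraries in 1 fit with 1 term per tissue, quasi-likelihood test, Benjamini-Hochberg adjustment over 15856 genes, threshold 0.05); the biological coefficient of variation was 0.336. Scripts were tested on simulated counts. limma 3.58.1 and DESeq2 1.42.0 served in alternatives. Lengths and exon overlaps came from GENCODE M21 (GRCm38), so no coordinates of the files' build are given. A count of 0 allows up to 3 counts, 0.0282 to 0.0534 CPM, and no hydroxylase gene was at 0. All 10 members and 12 partner genes were named, up to 4 genes of each other list (the 2 highest and 2 lowest among those called), and the 3 nearest profiles among genes averaging 10 CPM or more, of which the nearest or all 3 are printed. Members and lists were chosen with earlier results of these data known.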

Additional observations from a re-analysis of the deposited data

How the results depend on the processing

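Each tissue comparison was repeated under 15 alternatives. P4ha1 and P4ha3 for fat pad over muscle, P3h4 for fat pad over muscle, P4ha1, P3h2 and P3h3 for fat pad over tendon, and P3h2 for tendon over muscle kept direction and call in all 15. Without 1 library in turn, the genes called numbered 4 to 6 for fat pad over muscle, 3 to 4 for fat pad over tendon and 1 to 6 for tendon over muscle, where all genes called numbered 43 without muscle library 1, 19 without muscle library 2 and 1816 without tendon library 1, against 4127. Scaling by total counts moved the median of all genes by 0.51, -0.21 and 0.73 for fat pad over muscle, fat pad over tendon and tendon over muscle, DESeq2's size factors by 0.04, 0.11 and -0.07, and log2(TPM + 1) by -0.43, -0.81 and 0.38. Total counts called 8 of the 10 genes for fat pad over muscle (7 higher, 1 lower) and split the calls of all genes into 6350 higher and 3420 lower, against 4728 and 4698, and for tendon over muscle into 5969 and 398, against 2110 and 2017. Fat pad over tendon split into 3671 and 5449, against 4308 and 4972. With log2(TPM + 1) fat pad over muscle had 3027 calls higher and 5766 lower (among the 10 genes 2 and 2), fat pad over tendon 1603 higher and 8106 lower (0 and 6), and tendon over muscle 4337 higher and 533 lower (6 and 0). Log2 ratios of library 1 over library 2 correlated over genes at 0.00 between fat pad and tendon and -0.03 between fat pad and muscle. Between tendon and muscle the value was -0.17. Such values cannot show whether libraries of the same number came from the same animal. With the number as replicate block, calls for fat pad over muscle, fat pad over tendon and tendon over muscle numbered 5, 3 and 5. Of all genes, 8648, 8650 and 2759 were called. Lost were Plod2 for fat pad over tendon (-0.97, edgeR, adjusted p = 0.0633) and P3h1 for tendon over muscle (0.76, edgeR, adjusted p = 0.0607).

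Directions turned, among log2 fold changes, as follows, and the cause was not tested. With total counts, P4ha2 was 0.21 and P3h3 0.09 for fat pad over muscle, P3h1 -0.11 for fat pad over tendon and P4ha2 0.07 for tendon over muscle. With the authors' TPM (pseudocount 1, 0.1, or 1 with a mean of at least 1 TPM), fat pad over muscle gave Plod1 -0.23 each time, Plod3 -0.48, -0.51 and -0.48, and P3h2 -0.24, -0.26 and -0.24; fat pad over tendon gave P4ha2 -0.24, -0.26 and -0.24, P4ha3 -0.24, -0.28 and -0.24, and P3h1 -0.50, -0.55 and -0.50; tendon over muscle gave P4ha1 -0.25 each time. Plod3 for fat pad over muscle ran between -0.03 (without fat pad library 1 or without muscle library 2) and 0.23 when 1 library was left out. P3h4 for fat pad over tendon was 0.07 with DESeq2's size factors and its Wald test, 0.02 without fat pad library 1 and 0.09 without tendon library 2. Of these, P3h2 alone had been called.

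In fat pad, tendon and muscle, P4ha1's mean share was 50.6%, 80.4% and 68.3% without length scaling and 63.3%, 78.0% and 80.8% in TPM. P3h2 moved to 9.92% in fat pad and 33.8% in tendon without length scaling, and to 11.3%, 45.1% and 22.1% in the 3 tissues in TPM; P3h3 moved to 8.25%, 16.6% and 32% in TPM, and Plod2 in tendon to 28.6%. Per 1000 counts of Col1a1 alone, P4ha genes had 296, 27.4 and 211, Plod genes 438, 27.4 and 155, and P3h genes 266, 29.3 and 64.0. Within a tissue, TPM turned the log2 ratio of Plod2 to -0.80 in tendon and 0.76 in muscle, and the genes at least 1.5-fold apart in tendon numbered 1 with total counts and 2 with TPM. With 2 libraries per tissue the number of libraries, and for P4ha3 in muscle the counts too, limits precision.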

Other observations

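Of 11 fibrillar collagen chains, 0 rose and 7 fell for fat pad over muscle, 0 rose and 10 fell for fat pad over tendon, and 7 rose and 0 fell for tendon over muscle, with median log2 fold changes of -1.20, -2.87 and 1.42. Over all genes tested the medians were 0.14, -0.01 and 0.10, and 59.4%, 58.5% and 26.0% were called, so 7 of 11 for fat pad over muscle is near the share of all genes. None of the list calls here or in the next paragraph was repeated without single libraries. The cartilage-type chains Col11a1 (-7.42 ± 0.34) and Col11a2 (-7.38 ± 0.63) fell furthest in fat pad against tendon (edgeR, adjusted p = 5.56e-05 and 0.00014), and Col2a1 was higher in tendon than in muscle by 3.69 ± 0.90 (edgeR, adjusted p = 0.0283). All 6 basement membrane chains were lower in fat pad than in muscle, with a median of -2.10, and 5 were lower than in tendon, also with a median of -2.10. For tendon over muscle 1 of the 6 was called, Col4a2 (0.72 ± 0.21, edgeR, adjusted p = 0.0458), while P3h2, the hydroxylase linked to these chains, was higher in tendon by 3.72. Among 8 procollagen processing genes, 2 rose and 3 fell for fat pad over muscle, and 0 rose and 5 fell for fat pad over tendon. For tendon over muscle 5 rose and 0 fell, led by Pcolce2 (2.38) and Tll1 (1.84). Those higher in fat pad than in muscle were Pcolce2 (2.68) and Pcolce (1.25). Adamts3, an aminopropeptidase, had log2 fold changes of -4.72 for fat pad over tendon and -3.50 for fat pad over muscle.

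Of 9 procollagen secretion genes, 2 rose and 6 fell for fat pad over muscle, 1 rose and 6 fell for fat pad over tendon, and 1 rose and 3 fell for tendon over muscle, against 59.4%, 58.5% and 26.0% of all genes called in either direction. Sec24d, a coat protein needed for procollagen export, was the 1 that rose in tendon over muscle (1.67 ± 0.16, edgeR, adjusted p = 0.00418). Of 8 other 2-oxoglutarate hydroxylases, among them the oxygen sensors of the Egln family and Hif1an, 0 rose and 6 fell for fat pad over muscle, 0 rose and 5 fell for fat pad over tendon, and 0 rose and 4 fell for tendon over muscle. Hif1an (-4.80) and Egln1 (-4.38) fell furthest against muscle, and Egln1 (-3.76) and Hif1an (-3.26) against tendon. Of 8 genes of proline and ascorbate supply, 2 rose for fat pad over muscle, a share below that of all genes, 2 rose and 1 fell for fat pad over tendon, and 1 rose and 1 fell for tendon over muscle. Pepd, which frees proline from dipeptides, was higher in fat pad by 4.04 ± 0.24 over tendon and 3.10 ± 0.23 over muscle (edgeR, adjusted p = 6.26e-05 and 7.71e-05).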
